A study of Mus musculus with 13 samples.

Results

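The genes of the mitochondrial ribosome were examined for CTCF and cohesin at their promoters in embryonic mouse limbs of day E12.5. The members are the protein-coding autosomal genes whose GENCODE M21 symbol is Mrpl or Mrps followed by a digit. There were 78 of them among 20807 protein-coding autosomal genes, 49 Mrpl and 29 Mrps, and the other 20729 genes served as the comparison. The genes were chosen by symbol, but the family was selected on its peak counts in these same CTCF, RAD21 and SMC1 lists. Every share of members with a peak is therefore a description, set beside the share of other promoters and given without a test.

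The series title concerns a domain boundary at the HoxD cluster, and its design text names a set of HoxD deletions. Chromatin immunoprecipitation with sequencing gave 1 peak list per group, and no group had a replicate. Wild-type CD1 embryos gave CTCF, RAD21 and SMC1 lists from distal forelimb and a CTCF list from proximal forelimb. CTCF and RAD21 lists of whole forelimbs and hindlimbs, called whole limbs here, came from wild-type embryos on B6CBAF1. Strain and tissue therefore differ together between the distal forelimb and the whole limbs and cannot be told apart. Homozygous embryos on B6CBAF1, from crosses of heterozygous mice, gave CTCF lists for delHoxd(8-13)d11lac, delHoxd(8-13)rXII, delHoxd(1-13)d9lac and delHoxd(attP-rel5)d9lac. The delHoxd(8-13)rXII allele also gave a RAD21 list, from a library sequenced 2 times. Its CTCF list came from forelimbs alone and from ChIPmentation, a variant of the assay that adds adapters with a transposase. CTCF samples were fixed for 10 minutes, SMC1 samples for 25 minutes and RAD21 samples for either time, which the labels do not resolve by library. Peak lists carry no expression values, so the tissue labels could not be checked against marker genes.

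The lists held 15927 to 73682 peaks, and read depth was unknown. Between Hoxd8 and Hoxd13 each wild-type CTCF list held 5 peaks, and the 4 mutant CTCF lists held 0 to 2. The whole-limb RAD21 list had 4 peaks there and the delHoxd(8-13)rXII RAD21 list 0.

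Mitochondrial ribosomes translate the few messenger RNAs encoded by mitochondrial DNA, which specify core subunits of the respiratory chain. Their proteins are all encoded in the nucleus, scattered over many chromosomes, made in the cytosol and imported. Mrpl genes mostly encode proteins of the large subunit, which forms the peptide bond, and Mrps genes proteins of the small subunit, which reads the codons. A few symbols predate the structures, and the products of Mrps18a and Mrps30 lie in the large subunit. Such housekeeping promoters are usually CpG islands, often face a neighbouring gene, and are known to hold NRF1 and ETS motifs. CTCF recognises a directional DNA motif through its zinc fingers. Cohesin, a ring with the subunits RAD21 and SMC1, forms loops by extrusion and stalls where CTCF is bound. Cohesin is also known at active promoters without CTCF, where its loader and the transcription machinery are found.

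The promoter sequences of 6 members with cohesin but no CTCF in whole limbs are shown first, as examples of the class that the comparison is about. They were picked after their values were seen and are the 4 strongest of the class with 2 weak ones, Mrpl3 and Mrpl50, of which Mrpl50 had CTCF in 3 other lists. They run from before the gene start up to the base next to it, in the direction of the gene, leave out annotated UTRs, and come from RefSeq GRCm38.p6. On mm10 they lie at chr13:99344706-99344785 for Mrps27 (plus strand), chr3:32737606-32737725 for Mrpl47 (minus), chr4:107066869-107066987 for Mrpl37 (minus), chr6:147042644-147042763 for Mrps35 (plus), chr9:105053119-105053238 for Mrpl3 (plus) and chr4:49521094-49521175 for Mrpl50 (minus). Capitals mark matches to the searched motifs on either strand.
Mrps27: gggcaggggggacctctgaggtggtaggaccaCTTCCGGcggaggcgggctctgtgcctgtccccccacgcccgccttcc
Mrpl47: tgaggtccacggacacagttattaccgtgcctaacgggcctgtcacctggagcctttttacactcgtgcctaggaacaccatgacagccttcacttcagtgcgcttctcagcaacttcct
Mrpl37: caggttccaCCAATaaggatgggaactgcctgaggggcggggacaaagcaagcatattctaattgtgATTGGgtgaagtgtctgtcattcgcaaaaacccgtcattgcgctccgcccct
Mrps35: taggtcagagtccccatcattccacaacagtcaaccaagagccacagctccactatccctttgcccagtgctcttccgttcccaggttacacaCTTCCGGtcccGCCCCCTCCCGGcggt
Mrpl3: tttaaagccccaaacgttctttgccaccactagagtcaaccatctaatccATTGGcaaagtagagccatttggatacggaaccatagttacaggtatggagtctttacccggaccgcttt
Mrpl50: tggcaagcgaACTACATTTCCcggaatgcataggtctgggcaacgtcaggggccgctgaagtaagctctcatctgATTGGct
The Mrps27 promoter holds the ETS letters, on the reverse strand, starting at −48 bases from the gene start. The stretch of Mrpl47 holds none of the searched motifs. Mrpl37 holds 2 NF-Y motifs and Mrpl3 holds 1. Mrpl50 holds the ZNF143 letters and an NF-Y motif. Mrps35 holds the ETS letters and, from −16 bases, the CTCF core letters, although no CTCF peak lay within 1 kb in any of the 7 CTCF lists.

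For contrast, 101 bases around the whole-limb CTCF summit are shown for 4 members with strong CTCF, all of which held the core letters there. The members with the strongest whole-limb CTCF peaks are not shown. These were Mrps16 (−log10 q of 146), Mrps33 (137) and Mrps2 (128), and they held no core within 50 bp of the summit. These lie at chr7:105811209-105811309 for Mrpl17 (minus), chr19:4961973-4962073 for Mrpl11 (plus), chr8:71464731-71464831 for Mrpl34 (plus) and chr11:116139017-116139117 for Mrpl38 (minus). Capitals mark the core letters of the CTCF motif on either strand.
Mrpl17: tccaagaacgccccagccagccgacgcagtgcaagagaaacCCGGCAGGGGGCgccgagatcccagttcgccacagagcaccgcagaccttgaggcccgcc
Mrpl11: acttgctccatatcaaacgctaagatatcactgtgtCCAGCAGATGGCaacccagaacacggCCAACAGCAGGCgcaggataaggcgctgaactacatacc
Mrpl34: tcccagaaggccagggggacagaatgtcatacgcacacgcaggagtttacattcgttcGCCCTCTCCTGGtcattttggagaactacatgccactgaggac
Mrpl38: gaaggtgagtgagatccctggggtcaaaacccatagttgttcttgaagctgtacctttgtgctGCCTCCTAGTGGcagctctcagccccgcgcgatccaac
The core lay on the gene's own strand at Mrpl17 and, in both of its copies, at Mrpl11. It lay on the opposite strand at Mrpl34 and Mrpl38. Of the 17 members with a whole-limb CTCF peak, 5 (29.4%) held the core within 50 bp of the summit, against 32.2% of other promoters with such a peak. At the summits of whole-limb RAD21 peaks without CTCF the core was present at 1 of 12 members (8.33%) and at 6.26% of other promoters. It was present at 42.8% of all autosomal whole-limb CTCF summits and at 1.61% of positions 2 kb beside them.

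A peak was counted at a promoter when any of its bases lay within 1 kb of the gene's 5′ end. RAD21 and SMC1 peaks were found at a larger share of members than of other promoters in the 3 wild-type cohesin lists. With all peaks and promoters counted the CTCF shares lay closer together, but this contrast depended on the setting. In whole limbs 23 of 78 members (29.5%) had a RAD21 peak, against 15.4% of other promoters. In distal forelimb 15 members (19.2%) had RAD21, against 5.92%, and 22 (28.2%) had SMC1, against 10.4%. CTCF was present at 17 members (21.8%) in whole limbs, against 18.5% of other promoters. It was present at 26 members (33.3%) in distal forelimb, against 26.1%, and at 23 (29.5%) in proximal forelimb, against 26.3%. Among genes with no other protein-coding gene start within 1 kb, the CTCF shares lay further apart. They were 40.9% against 24.9% in distal forelimb, 36.4% against 25.2% in proximal forelimb and 29.5% against 17.8% in whole limbs. RAD21 was then at 29.5% against 14.6% in whole limbs and 18.2% against 5.99% in distal forelimb, and SMC1 at 38.6% against 10.1%.

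**Figure D1:**
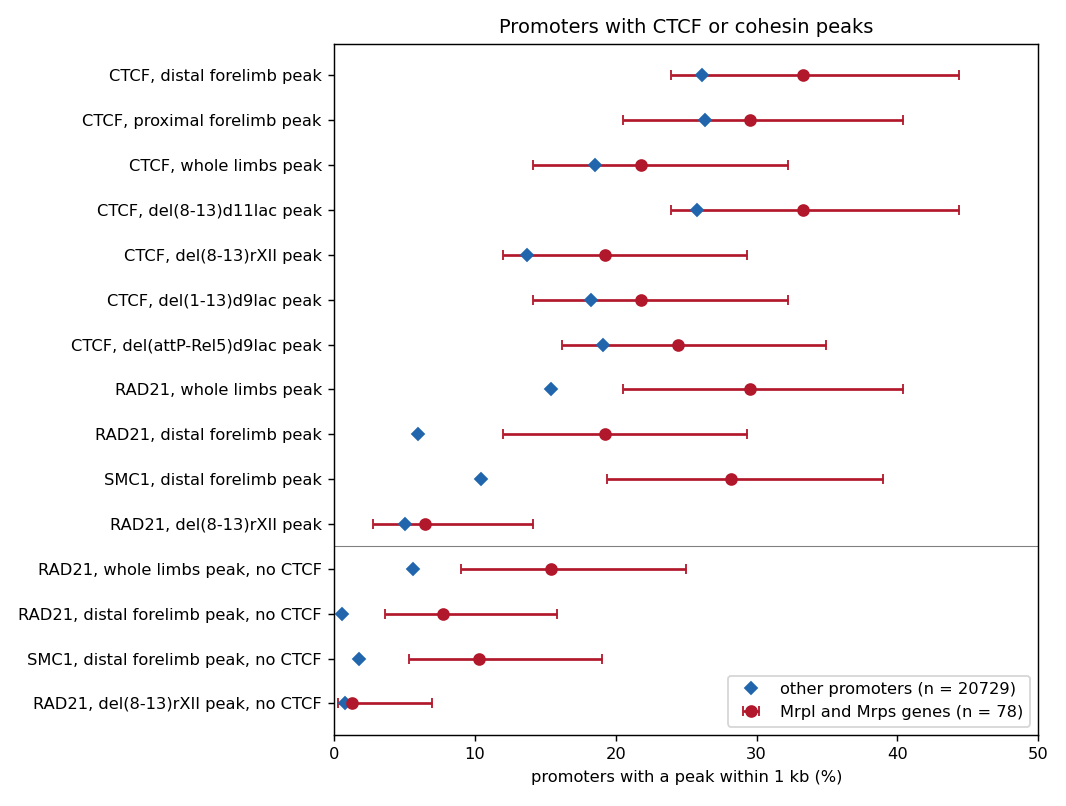
Share of promoters with a peak within 1 kb of the gene start, in percent, for each peak list and for cohesin peaks with no CTCF peak of the matched list. Red circles are the 78 Mrpl and Mrps genes with Wilson 95% intervals for counting error, and blue diamonds the 20729 other promoters; for whole-limb RAD21 without CTCF the circle is at 15.4% and the diamond at 5.62%.

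Cohesin without CTCF means a cohesin peak at the promoter and no CTCF peak there in the list of the same tissue and genotype. For delHoxd(8-13)rXII the genotype alone is matched, since its CTCF list is of forelimbs by ChIPmentation and its RAD21 list of forelimbs and hindlimbs. In whole limbs 12 members (15.4%, interval 9.03% to 25.0%) had RAD21 without CTCF, against 5.62% of other promoters. In distal forelimb 6 members (7.69%) had RAD21 without CTCF, against 0.564%, and 8 (10.3%) had SMC1 without CTCF, against 1.76%. The 3 lists together named 21 members (26.9%), against 6.75% of other promoters, and 18 members (23.1%) had cohesin in at least 1 of them and no CTCF peak in any of the 7 CTCF lists, against 4.37%. A cohesin peak in all 3 wild-type lists was present at 8 members (10.3%), against 4.68%. Of the members with a cohesin peak, the part that lacked CTCF was 52.2% for whole-limb RAD21, 40.0% for distal RAD21 and 36.4% for distal SMC1. The same parts of other promoters were 36.5%, 9.54% and 16.9%. These are weak peaks by −log10 q, the authors' significance value for a peak, which grows with its strength. When peaks with a −log10 q under 10 were left out of every list, 1 member was counted in whole limbs (1.28%, against 1.04% of other promoters). Distal RAD21 gave 0 (against 0.0579%, so that the order turned) and distal SMC1 gave 1 (1.28%, against 0.0338%). The whole-limb gap was then 0.245 percentage points. Promoters whose CTCF peaks were all under 10 entered these counts. Within the class as first defined, whole-limb RAD21 reached 10 at 1 of 12 members and 121 of 1166 other promoters. Distal RAD21 did at 0 of 6 and 11 of 117, and distal SMC1 at 1 of 8 and 3 of 365. With every list reduced to its strongest 15927 peaks, none of the 12 whole-limb members was left. The 1 member then counted (1.28%, against 1.41% of other promoters) was Mrps23, whose CTCF peak of 26.8 fell out of the shortened CTCF list. The order of the shares turned there, but the CTCF calls had changed as well.

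The whole-limb RAD21 members without CTCF were led by Mrps27, whose product belongs to a family of RNA-binding pentatricopeptide proteins. Its peak had a −log10 q of 12.1, percentile 47.6 among the peaks of its list, and ranked 81 of 1178 promoters in this class. The summit lay at −176 bp from the start of Mrps27, inside coding sequence of Ptcd2, a mitochondrial RNA-processing gene that starts 81 bp away on the other strand. Distal RAD21 was also called there, at 3.92, and distal SMC1 was not.

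Mrpl47 followed with a −log10 q of 8.14. It faces Ndufb5, a subunit gene of respiratory complex I, with the starts 615 bp apart, and the same RAD21 peak was counted at both promoters. Mrpl37 reached 6.66 with its summit at −42 bp, and a weaker RAD21 peak of 1.97 lay further upstream in an intron of Cyb5rl. Mrpl37 had no CTCF peak in whole limbs but a weak one of 6.14 in distal forelimb. Mrps35 reached 5.35 with a summit in its intron, 384 bp downstream of the start.

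Mrps21, a small-subunit protein with a bacterial counterpart, had a whole-limb RAD21 peak of 5.24 whose summit lay 13 bp into the gene. Mrpl48 reached 4.87 in a region shared with Rab6a, a GTPase of Golgi traffic. Mrpl36 reached 4.06 in coding sequence of Ndufs6, another complex I gene, which starts 29 bp away. Mrpl18, whose product is the homologue of a 5S-rRNA-binding protein, reached 3.81 in an intron of Tcp1, a cytosolic chaperonin gene. The lowest 4 were Mrps6 at 2.56, Mrpl3 at 2.25, Mrpl50 at 1.80 and Mrps28 at 1.40.

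The median −log10 q of these 12 members was 4.46, against 4.35 for the 1166 other promoters with RAD21 without CTCF, so the peaks at members were of usual strength for the class. Of the 12, 9 had no CTCF peak in any of the 7 lists, as did 704 of the 1166 other promoters. The exceptions were Mrpl37, Mrpl50 and Mrps28, which had CTCF in other tissues or alleles. Mrpl50 had CTCF at 21.7 in proximal forelimb and 11.4 in delHoxd(8-13)d11lac.

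Distal forelimb named 12 members as well, but mostly different ones. Only Mrpl3, Mrps27 and Mrps35 had cohesin without CTCF in both tissues, 25.0% of either list of 12. Among other promoters 211 were shared, which was 18.1% of the 1166 in whole limbs and 47.4% of the 445 in distal forelimb. Mrpl3, which sits near the site of peptide-bond formation, had the strongest such SMC1 peak among members, at 11.1 and 39 bp into the gene, while its whole-limb RAD21 peak was 2.25. Mrpl1 and Mrps31 were the 2 members with RAD21 and SMC1 both called in distal forelimb without CTCF. They made up 33.3% of the 6 with RAD21 and 25.0% of the 8 with SMC1. Among other promoters 37 had both, 31.6% of 117 and 10.1% of 365. Mrpl1 had RAD21 at 3.05 and SMC1 at 7.03, and Mrps31 had 3.34 and 7.19. SMC1 alone was called at Mrpl21 (7.27), Mrpl13 (4.65), Mrpl42 (3.72), Mrps35 (3.65) and Mrps9 (1.92). RAD21 alone was called at Mrps18c (4.34), Mrps27 (3.92), Mrpl41 (2.47) and Mrpl32 (1.47). The distal RAD21 peaks without CTCF at members ran from percentile 0.285 to 8.92 of their list, and the SMC1 ones from 1.84 to 49.5.

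**Figure D2:**
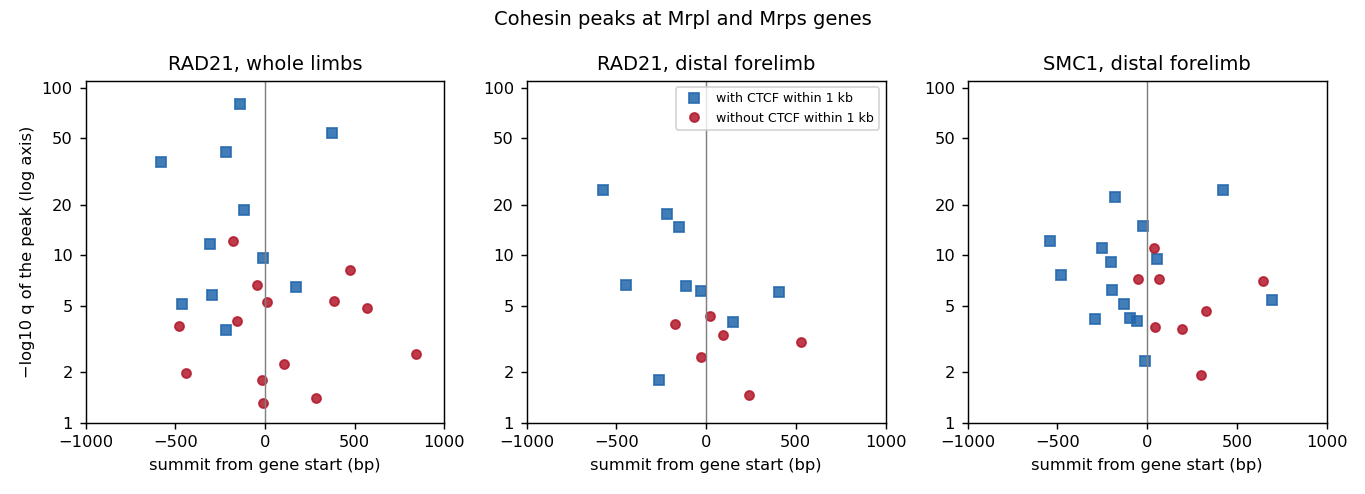
Each cohesin peak at an Mrpl or Mrps gene by the distance of its summit from the gene start in bp, in the direction of the gene (x axis), and its −log10 q (y axis, log scale), in the 3 wild-type cohesin lists. Blue squares had a CTCF peak within 1 kb of the start and red circles had none; the red points lie at 12.1 or below, and a gene with 2 peaks gives 2 points.

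The cohesin peaks without CTCF had their median summit downstream of the gene start. In whole limbs their median summit was 59.5 bp into the gene for members and 97.5 bp for other promoters. Distal SMC1 gave 130.5 bp for members and 149.0 bp for other promoters. Its summits lay downstream at 7 of 8 members and at 256 of 365 other promoters. For whole-limb RAD21 without CTCF they did at 7 of 12 members and at 775 of 1166 other promoters. Where CTCF was present the member summits lay upstream, with a median of −216.0 bp for whole-limb RAD21 and −154.5 bp for SMC1. Other promoters with CTCF had medians of −45.0 and −65.0 bp.

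RAD21 and CTCF were found together at 11 members in whole limbs (14.1%), against 9.77% of other promoters. Mrpl17 carried the strongest RAD21 peak of the family, with a −log10 q of 80.5 (percentile 88.3), and CTCF at 89.2. The RAD21 and CTCF summits lay at −140 and −160 bp from its start, next to the core letters printed above. Mrpl39, a relative of threonyl-tRNA synthetase, had RAD21 at 54.0 and CTCF at 40.3, both downstream of the start. Mrps14 had 41.7 and 65.2, and Mrps23 had 36.2 and 26.8.

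Mrpl11, a protein of the site where translation factors bind, had RAD21 at 18.6 and CTCF at 62.6. Mrpl33 had 11.7 and 10.2. At the next member, Mrps33, CTCF stood at 137 and RAD21 at 9.59, so the order of the members by CTCF was not their order by RAD21. Mrpl44, which carries an RNase III-like fold, had 6.46 and 5.17. Of these 11, 10 (90.9%) also had distal RAD21 or SMC1, and Mrpl33 did not. Other promoters with both proteins had it in 74.1% of cases. Of the 12 members without CTCF 5 had it (41.7%), against 26.8% of other promoters of that class.

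CTCF without RAD21 in whole limbs was found at Mrps16, Mrps2, Mrpl38, Mrpl23, Mrps18b and Mrpl40, which is 7.69% of members against 8.71% of other promoters. Mrps16, a small-subunit protein whose loss in people impairs mitochondrial translation, had the strongest CTCF peak of the family in whole limbs, at 146 (percentile 99.6). The summit lay 56 bp into the gene, and none of the 4 cohesin lists had a peak there. CTCF at Mrps16 was called in all 7 lists, between percentiles 88.3 and 99.6. Of the 164 autosomal whole-limb CTCF peaks at least as strong, 14 (8.54%) overlapped no RAD21 peak. These were 11 of the 46 within 1 kb of a protein-coding gene start (23.9%) and 3 of the 118 elsewhere (2.54%). Mrps2 had CTCF at 128 with no RAD21 peak, but a distal SMC1 peak of 4.03. Mrpl38 had CTCF at 72.1, no RAD21 and distal SMC1 at 9.08.

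**Figure D3:**
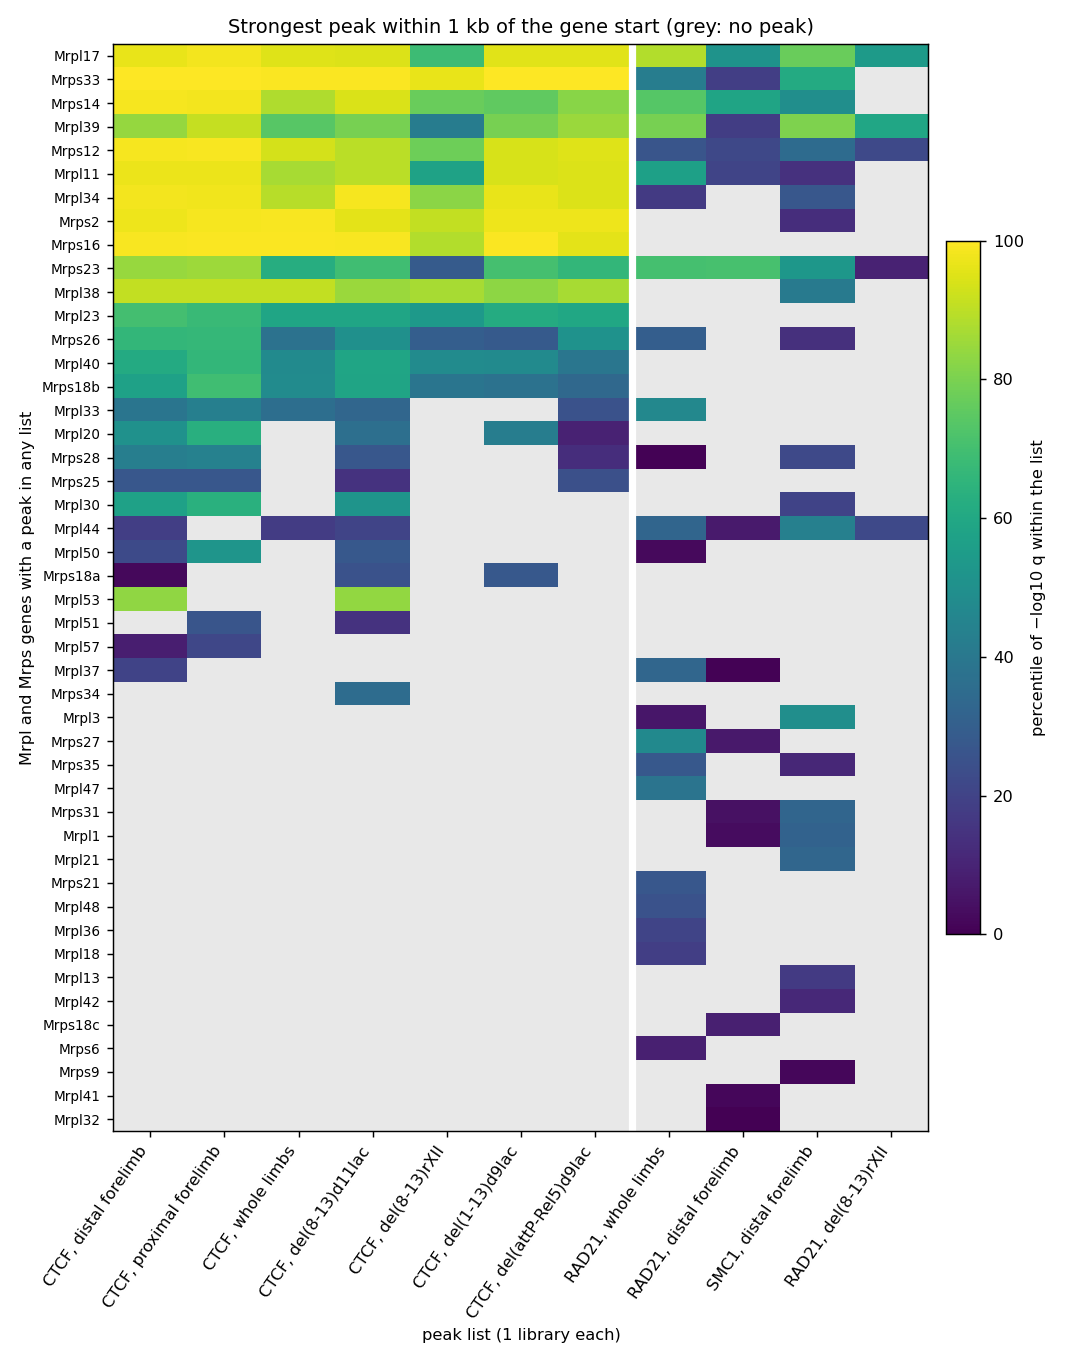
The 46 Mrpl and Mrps genes with a peak in any of the 11 lists (rows) against the lists (columns, CTCF left of the white line and cohesin right of it). Colour gives the percentile of the strongest peak's −log10 q within its own list and grey marks no peak; the upper rows hold CTCF in all 7 lists, and the lowest 18 rows hold cohesin and no CTCF in any list.

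CTCF at members was compared across tissues and alleles. Of the 17 members with CTCF in whole limbs, all 17 had it in distal forelimb, against 96.0% of other promoters with whole-limb CTCF. In proximal forelimb 16 had it (94.1%, against 96.2%), all but Mrpl44. Of the 26 members with CTCF in distal forelimb, the 17 are 65.4%, against 68.0% among other promoters. CTCF was present at 26 members in delHoxd(8-13)d11lac (33.3%, against 25.8% of other promoters) and at 17 in delHoxd(1-13)d9lac (21.8%, against 18.2%). It was present at 19 in delHoxd(attP-rel5)d9lac (24.4%, against 19.1%) and at 15 in delHoxd(8-13)rXII (19.2%, against 13.7%). Of the 17 whole-limb members 17, 15, 16 and 15 had CTCF again in these lists. The 2 not found in delHoxd(8-13)rXII were Mrpl33 and Mrpl44, whose whole-limb peaks were the weakest of the 17. Other promoters with whole-limb CTCF had it again in 68.7% of cases in delHoxd(8-13)rXII and in 84.9% to 96.3% in the other alleles. In all, 15 members had CTCF in all 7 lists (19.2%, against 12.2% of other promoters) and 28 in at least 1 (35.9%, against 31.6%).

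In delHoxd(8-13)rXII RAD21 was called at 5 members (6.41%), against 5.05% of other promoters. These were Mrpl17 at 15.9, Mrpl39 at 17.7, Mrpl44 at 6.90, Mrps12 at 6.87 and Mrps23 at 4.60, and all 5 were among the 11 with both proteins in wild-type whole limbs (45.5%, with 46.7% among other promoters). None of the 12 members with whole-limb RAD21 without CTCF had a RAD21 peak in this allele. Among other promoters of that class 7.20% had one. Only Mrpl44 (1.28% of members) had RAD21 without CTCF in delHoxd(8-13)rXII, against 0.786% of other promoters, by a CTCF list of another tissue sample and assay, and it had a CTCF peak in wild-type whole limbs. This RAD21 list holds 15927 peaks and the wild-type one 33707, and with 1 library each the allele and the library cannot be told apart.

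No peak in any list was found at 32 members, and a peak in at least 1 at 46 (59.0%), against 36.0% of other promoters. The first 15 without a peak by symbol were Mrpl10, Mrpl12, Mrpl14, Mrpl15, Mrpl16, Mrpl19, Mrpl2, Mrpl22, Mrpl24, Mrpl27, Mrpl28, Mrpl35, Mrpl4, Mrpl43 and Mrpl45. Mrpl12 is known to bind the mitochondrial RNA polymerase. Mrpl17, Mrpl39, Mrps12 and Mrps23 had a peak in all 11 lists. By symbol, the 2 subunits had close shares of cohesin without CTCF over the 3 wild-type cohesin lists, at 13 of 49 Mrpl genes (26.5%) and 8 of 29 Mrps genes (27.6%).

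A few members stood at the edge of the 1 kb window. At Mrpl53 a strong CTCF site with its summit at −1261 to −1292 bp came within the window in 2 lists, with its edge 986 and 996 bp from the start. It missed the window in the other 5 CTCF lists, where the edge lay 1015 to 1109 bp away, and a whole-limb RAD21 peak of 20.0 missed it at 1124 bp. The CTCF peak of Mrpl30 had its edge 905 to 953 bp away in 3 lists and 1033 to 1049 bp away in 3 others. The CTCF peak of Mrpl40 was inside in all 7 lists, at 803 to 979 bp, and that of Mrpl57 in 2, at 805 and 819 bp. The peak of Mrps34 was inside in 1 list of 6, at 996 bp, and the peak of Mrpl24 was outside at 1047 bp.

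The promoters of members differed from other promoters in features that no peak list entered. CpG observed over expected, counted from 250 bp before to 50 bp after the start, had a median of 0.82 in members and 0.538 in other promoters. The highest tertile of all promoters held 44 members (56.4%) and 33.2% of other promoters. Another protein-coding gene started within 1 kb at 34 members (43.6%), against 12.8% of other promoters, and for 33 of these 34 at least 1 such gene ran in the opposite direction. Several partners are mitochondrial as well, as Ndufb5 with Mrpl47, Ndufs6 with Mrpl36, Ptcd2 with Mrps27 and Sars2, the mitochondrial seryl-tRNA synthetase, with Mrps12. Mrpl46 and Mrps11 face each other 412 bp apart, and neither had a peak in any list.

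Both features went with cohesin without CTCF at other promoters too. Over the 3 wild-type cohesin lists it was present at 11.1% of other promoters in the highest CpG tertile, 7.62% in the middle and 1.53% in the lowest. Members had 29.5%, 25.0% and 0 of 2. At shared promoters the share was 38.2% for members and 12.3% for others, and at promoters of a single gene 18.2% and 5.94%. With both features at once, highest CpG tertile and a shared promoter, 10 of 25 members (40.0%) had cohesin without CTCF, against 14.0% of other promoters.

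For RAD21 in whole limbs the gap varied between these classes. In the highest CpG tertile 22.7% of members and 22.6% of other promoters had any RAD21 peak, so there was no gap there, while in the middle tertile 40.6% and 18.9% did. For whole-limb RAD21 without CTCF the shares in the highest tertile were 15.9% and 9.24%. CTCF was at fewer members than other promoters in that tertile, at 15.9% and 26.3% in whole limbs and 27.3% and 37.6% in distal forelimb. In the middle tertile the CTCF shares were 28.1% and 23.3% in whole limbs and 40.6% and 32.0% in distal forelimb. Among genes with their own promoter, whole-limb RAD21 without CTCF was at 4 of 44 members (9.09%), against 4.98% of others. Among shared promoters, whole-limb RAD21 without CTCF was at 8 of 34 members (23.5%), against 10.0%. The part of CpG content and of shared promoters in the difference was not tested.

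**Figure D4:**
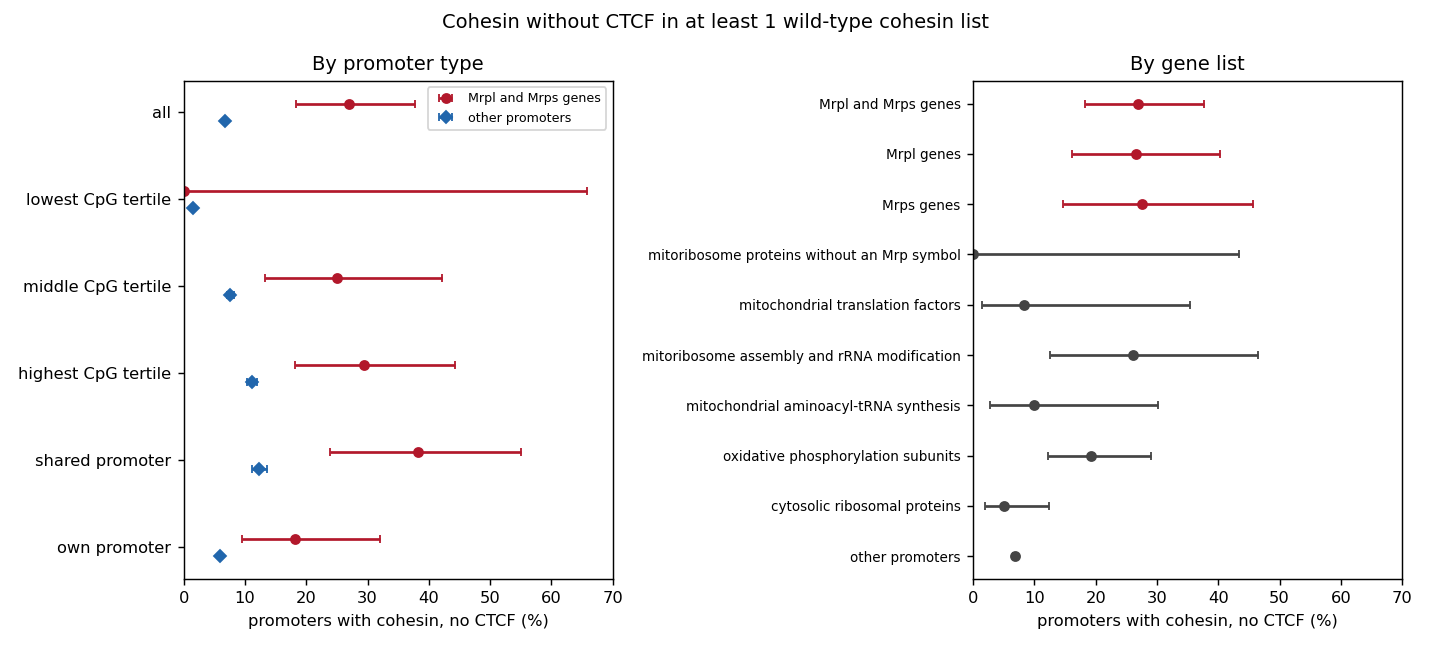
Share of promoters with cohesin but no CTCF in at least 1 of the 3 wild-type cohesin lists, in percent with Wilson 95% intervals for counting error. Left, Mrpl and Mrps genes (red) and other promoters (blue) by CpG tertile and by whether another protein-coding gene starts within 1 kb; right, the Mrpl and Mrps genes beside 6 related gene lists, with cytosolic ribosomal proteins at 5.06% and all other promoters at 6.75%.

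Motif letters were counted on both strands from 250 bp before to 50 bp after the start in the reference sequence. A promoter could count for several motifs, whose letters may overlap. The ETS letters CCGGAAG were found at 27 members (34.6%), against 10.9% of other promoters and 20.8% of other promoters in the highest CpG tertile. The NRF1 letters, bound by a known activator of nuclear genes for mitochondria, were at 12 members (15.4%), against 6.13% and 14.8%. Of the 44 members in the highest tertile 20.5% held them. The YY1 letters AAGATGGC were at 10 members (12.8%), against 2.89% and 5.09%. The ZNF143 letters were at 7 members (8.97%), against 2.79% and 3.82%.

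The CTCF core was at 14 members (17.9%), against 9.58% of other promoters. Within the highest CpG tertile it was at 15.9% of members and 13.9% of other promoters. The NF-Y letters CCAAT were at 35.9%, against 38.6%, and TATAAA at 6.41%, against 12.8%. In the highest CpG tertile TATAAA was at 6.82% of members and 5.4% of other promoters. CREB letters TGACGTCA were at 2.56%, against 2.43%, and the E-box CACGTG at 6.41%, against 7.82%. Among the 21 members with cohesin without CTCF, YY1 letters were at 5 (23.8%), against 4.07% of the 1400 other promoters of that class. The ETS letters were at 6 of these 21 (28.6%) and at 9 of the 32 members with no peak (28.1%), so the shares there were close. A match is a count of letters and not a binding site.

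**Figure D5:**
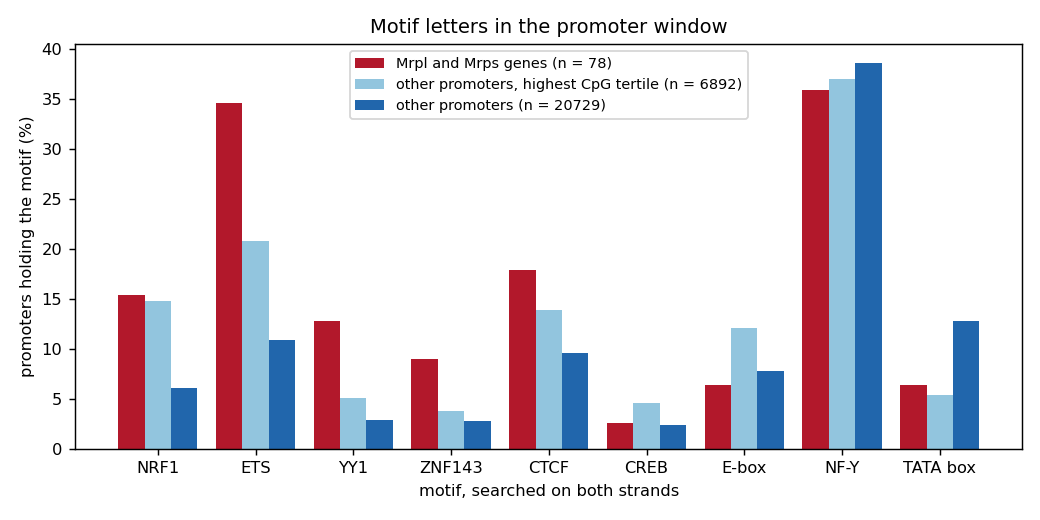
Share of promoters that hold each motif from 250 bp before to 50 bp after the gene start, in percent, for the 78 Mrpl and Mrps genes (red), other promoters of the highest CpG tertile (light blue) and all other promoters (dark blue). The bars of members stand above both others for ETS (34.6%), YY1 (12.8%), ZNF143 (8.97%) and CTCF (17.9%), and for NRF1 they stand at 15.4% beside 14.8% in the CpG-rich promoters. The red bars hold members of all CpG tertiles, and for CTCF the members of the highest tertile alone had 15.9%, beside 13.9%.

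Related genes were counted in the same way. Genes of mitoribosome assembly and rRNA modification had cohesin without CTCF in at least 1 wild-type list at 6 of 23 (26.1%), close to the 26.9% of members. In whole limbs these were Mterf4 with a RAD21 −log10 q of 8.11, Malsu1 at 3.85, Mettl15 at 2.52 and Rpusd4 at 1.42. Oxidative phosphorylation subunits had it at 16 of 83 (19.3%), led in whole limbs by Ndufs7 at 31.0. Among these 16, Ndufb5 was counted by the peak it shares with Mrpl47. Mitochondrial aminoacyl-tRNA synthesis had cohesin without CTCF at 2 of 20, Rars2 (7.63) and Qrsl1 (4.82). Mitochondrial translation factors had it at 1 of 12, Gfm2 (4.04). The 5 mitoribosome proteins without an Mrp symbol had none, which allows up to 43.4% by the Wilson interval. Cytosolic ribosomal proteins, the other ribosome of the cell, had it at 4 of 79 (5.06%), below the 6.75% of other promoters. Rpl15 (4.67) and Rps27a (3.22) were the cases in whole limbs. CTCF was present in all 3 wild-type lists at 27 of 79 cytosolic ribosomal protein genes (34.2%) and at 16 of 78 members (20.5%), against 17.6% of other promoters.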

How the data were processed

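Each of the 11 CTCF, RAD21 and SMC1 samples came with 1 deposited narrowPeak list. Per the submitters' processing notes, cutadapt, Bowtie2, MACS2 and mm10 were used, with no versions given. The score, the fold (ratio) over background and the 2 significance values of a peak (−log10 p, −log10 q) were computed by the authors and deposited. Each list starts at about a q of 0.05. Strength depends on unknown depth and was ranked within a list only, as the percentile of −log10 q. The 2 H3K27ac samples were not analysed here.

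Rows of 1 region with several summits were merged, keeping the strongest. Gene starts are the 5′ ends of GENCODE M21 gene records on GRCm38, coordinates are 1-based, and sequence came from RefSeq GRCm38.p6. Python 3.11.15, pandas 2.3.3 and numpy 2.4.6 were used, and peak assignment and motif search were tested on simulated data. Of the 24 assembly symbols 23 were matched.

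With 1 library per group there is no replicate and no test. Members and lists were chosen with earlier results of these data known. Named were the 12 members with the highest whole-limb RAD21 −log10 q without CTCF, the 8 highest with both proteins, the first 15 without a peak, those with a peak edge 800 to 1200 bp from the start, partners sharing a promoter, and up to 4 genes per related list. Members of the distal forelimb, those with CTCF alone and those in delHoxd(8-13)rXII were named after their values were seen. Alternatives were a minimum −log10 q of 10, lists of equal length, windows of 500 bp and 2 kb, the summit in the window, any protein-coding transcript start, own promoters only, and 2 other definitions of absent CTCF.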

Additional observations from a re-analysis of the deposited data

How the results depend on the processing

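Counts are of members, and differences are the share of members minus the share of other promoters in percentage points. Of 113 recomputed counts 85 stayed within 1.5 times and 28 moved further. Of 113 differences 5 changed sign, 91 were labelled as stayed and 17 as moved. These labels did not follow the size of the difference. With own promoters only, the difference for proximal CTCF went from 3.16 to 11.2 and was labelled as stayed. With lists of equal length, that for distal CTCF went from 7.25 to 7.17 and was labelled as moved. The cause of changes in the shares was not tested.

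When peaks with a −log10 q under 10 were left out of every list, the counts became 8 for delHoxd(8-13)rXII CTCF (difference 4.45), 7 for whole-limb RAD21 (2.19), 3 for distal RAD21 (1.0), 6 for distal SMC1 (3.64) and 2 for delHoxd(8-13)rXII RAD21 (−0.0361, changed sign). Without CTCF they became 1 for whole-limb RAD21 (0.245), 0 for distal RAD21 (−0.0579, changed sign) and 1 for distal SMC1 (1.25). CTCF peaks under 10 were left out too, so promoters with only such CTCF peaks counted as without CTCF. The difference for CTCF was 7.74 in whole limbs, above that of RAD21 (2.19). In distal forelimb it was 5.23, above those of RAD21 (1.0) and SMC1 (3.64).

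With lists of equal length CTCF was counted at 12 members in distal forelimb (7.17), 11 in proximal forelimb (5.6), 10 in whole limbs (4.85), 11 in delHoxd(8-13)d11lac (6.91), 9 in delHoxd(8-13)rXII (4.53), 11 in delHoxd(1-13)d9lac and 11 in delHoxd(attP-rel5)d9lac (6.13). Whole-limb RAD21 was counted at 5 (1.11) and distal SMC1 at 12 (10.1). Without CTCF the counts were 1 for whole-limb RAD21 (−0.131, changed sign), 5 for distal SMC1 and 3 for delHoxd(8-13)rXII RAD21. CTCF lists were cut too, and the 1 whole-limb member was Mrps23, which has a CTCF peak in the full list. In whole limbs the difference for CTCF (4.85) was above that of RAD21 (1.11). In distal forelimb CTCF (7.17) stayed below RAD21 (8.65) and SMC1 (10.1).

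With a window of 2 kb the difference was 7.88 for proximal CTCF, and delHoxd(attP-rel5)d9lac CTCF was counted at 29 members (12.3). With own promoters only, 44 members remained, so counts have a smaller base. They were 13 for whole-limb RAD21 (29.5%, as among all 78), 8 for distal RAD21 (18.2%, beside 19.2%) and 3 for delHoxd(8-13)rXII RAD21 (6.82%, beside 6.41%). The difference for delHoxd(attP-rel5)d9lac CTCF was 17.9. Without CTCF the counts were 4 for whole-limb RAD21 (9.09%, beside 15.4%) and 2 for distal RAD21 (4.55%, beside 7.69%). Distal SMC1 without CTCF was at 6 (13.6%, beside 10.3%). RAD21 without CTCF in delHoxd(8-13)rXII was counted at 0 (−0.747, changed sign). With no CTCF in any of the 7 lists delHoxd(8-13)rXII RAD21 was counted at 0 (−0.207, changed sign).

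No paired analysis was possible because each group had 1 library and no test was made. The lists hold called peaks only, so binding below the authors' threshold, and any difference it makes between lists of unequal depth, was not measured. Antibody, fixation, strain and library differ between lists and cannot be told apart. Peaks show where a protein was recovered and carry no expression.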
